A study of Mus musculus with 9 samples.

Results

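A set of 10 identity marker genes of microglia was followed through 9 libraries of sorted mouse microglia. The genes were Tmem119, Olfml3, Fcrls, Sparc, Slco2b1, Crybb1, Golm1, Ltc4s, Cst3 and Rnase4, chosen by symbol, out of 23238 gene symbols counted. Each was found once in every library and all 10 passed the filter on low counts, which kept 12292 genes. The cells were CD45+CD11b+P2ry12+ and came from the brains of 12-week-old female wild-type C57BL/6N mice, with 3 libraries per group and a pool of 3 samples behind each library. Normal mice were untreated. NMO mice were examined 1 day after a mixture of patient NMO-IgG, the antibody against aquaporin-4 in neuromyelitis optica, and human complement was injected into the striatum of 1 hemisphere. NMO+CL mice received the same mixture and, 6 h earlier, intraperitoneal clodronate liposomes, which deplete monocytes. The study describes its microglia sequencing with these 3 groups and names no sequenced microglia from mice given control IgG or empty liposomes. The injection, the antibody and the complement therefore cannot be told apart, nor can clodronate and its carrier.

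Microglia are the resident macrophages of the brain parenchyma. Their identity is kept by signals such as TGF-beta and by transcription factors that include PU.1 and Sall1, and many genes that distinguish them from blood-derived macrophages are known to decline when microglia are stimulated. The identity genes are functionally mixed: some encode surface proteins, others encode secreted proteins or enzymes, so they do not form a single biochemical pathway.

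The promoters of 3 of the genes are shown: Crybb1 had the largest fitted fall, Olfml3 fell in both comparisons with NMO+CL, and Rnase4 shares the first of its 2 listed promoters with a neighbour that fell too. Each sequence holds the 250 bases before the start site in RefSeq (GRCm38.p6), read 5′ to 3′ on the strand of the gene. Capitals mark either TATAAA, the TATA box, or GGAAGT, the core bound by PU.1 and other ETS factors. Both strands were searched, and in the members no match overlapped another. Crybb1 lies at chr5:112255570-112255819 on the plus strand, Olfml3 at chr3:103738002-103738251 on the minus strand, and the Rnase4 promoter that is shared letter for letter with its neighbour Ang at chr14:51090827-51091076 on the plus strand.
Crybb1: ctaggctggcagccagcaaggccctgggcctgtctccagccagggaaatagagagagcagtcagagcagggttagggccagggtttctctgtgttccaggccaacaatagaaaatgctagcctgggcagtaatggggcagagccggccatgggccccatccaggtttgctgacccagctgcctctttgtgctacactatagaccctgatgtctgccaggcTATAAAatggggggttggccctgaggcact
Olfml3: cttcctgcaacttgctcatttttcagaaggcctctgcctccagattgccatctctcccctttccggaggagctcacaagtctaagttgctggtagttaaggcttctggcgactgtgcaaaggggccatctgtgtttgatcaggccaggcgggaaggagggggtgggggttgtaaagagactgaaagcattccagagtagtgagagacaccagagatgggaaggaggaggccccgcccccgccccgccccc
Rnase4 and Ang: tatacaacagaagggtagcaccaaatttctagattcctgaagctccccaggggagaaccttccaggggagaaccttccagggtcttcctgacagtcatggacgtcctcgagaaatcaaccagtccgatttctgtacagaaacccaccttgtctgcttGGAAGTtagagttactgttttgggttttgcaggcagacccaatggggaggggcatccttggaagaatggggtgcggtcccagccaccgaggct
The Crybb1 match to TATAAA began 30 bases before the start site, and the GGAAGT match of Rnase4 and Ang began 93 bases before theirs. The other Rnase4 promoter, at chr14:51095750-51095999, is not shared with Ang and held GGAAGT 42 bases before its start site. The Olfml3 window held neither. Among the 9 members with a promoter entry, GGAAGT was present in the windows of Fcrls, Golm1, Ltc4s and Rnase4, against 22.2% of 27025 genes, and TATAAA in those of Crybb1, Fcrls and Golm1, against 14.3%. The AP-1 letters TGANTCA occurred in 0 of the 9, against 7.82% of genes. These are matches of letters and not binding sites.

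Transcripts were counted from their 3′ ends, and levels are given as CPM, counts per 1000000 counts of a library size that edgeR scaled by its TMM method, a trimmed mean of ratios between libraries. CPM values of different genes are not scaled by length. Total counts ran from 5788234 to 7837219 per library, of which the ribosomal entry Rn45s took 16.0% to 31.0%. The summed level of the 10 genes was 35400, 37450 and 38430 CPM in the Normal libraries, 28070, 31030 and 30800 in the NMO libraries, and 20110, 16820 and 16750 in the NMO+CL libraries. The groups did not overlap, and the sum is dominated by Cst3, which gave 61.1% to 64.0% of it in Normal and NMO and 40.6% to 58.9% in NMO+CL. Without Cst3 the sums were 12900 to 14580 CPM in Normal, 10830 to 11490 in NMO and 7646 to 9957 in NMO+CL, still without overlap.

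**Figure D1:**
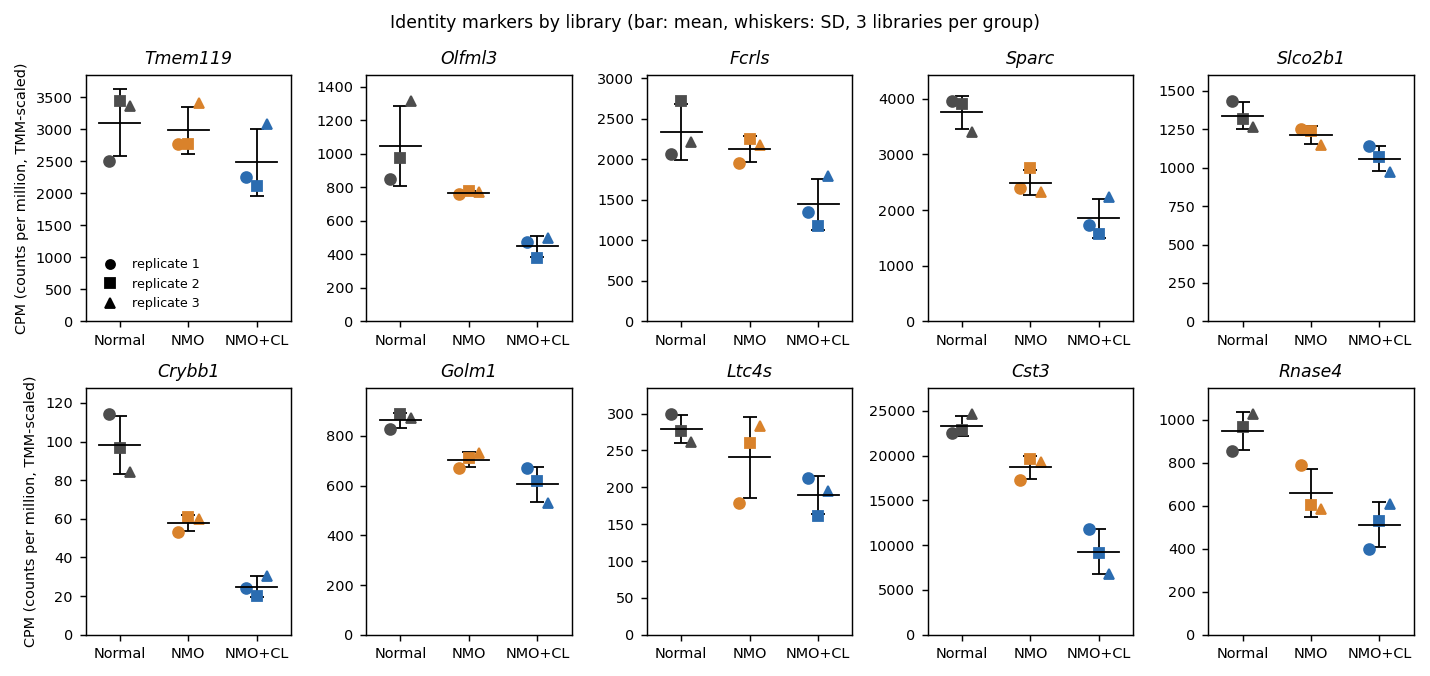
Level of each identity marker in every library, in CPM on a linear axis from 0, for the Normal, NMO and NMO+CL groups. Points are libraries with the replicate number given by the symbol, horizontal bars are means and whiskers are SDs of 3 libraries. Cst3 falls from a mean of 23320 CPM in Normal to 18710 in NMO, with 9271 in NMO+CL, whereas the Tmem119 libraries of the 3 groups overlap.

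The first comparison asked what NMO induction did to these genes. No member passed the test in NMO against Normal (edgeR quasi-likelihood, Benjamini-Hochberg adjusted p under 0.05), although all 10 fitted log2 fold changes were negative, between -0.76 and -0.06. Only 3 of 12292 genes, 0.0244%, were called lower in this comparison, and 61 genes were called in either direction, while 1169 had an unadjusted p under 0.05, among them 4 members. DESeq2 and limma-voom each called 1 member, Sparc. A fitted value below 0 was found for 50.7% of all genes. The study counted changed genes at a p under 0.05 with a 1.5-fold change and used a 1.2-fold change in some displays, including that of microglial markers. Here both folds were applied with an unadjusted p. Sparc and Crybb1 were lower at 1.5-fold, against 2.77% of all genes, and Olfml3 and Rnase4 joined them at 1.2-fold, against 3.47%. In 7 members every NMO library lay below every Normal library, against 8.2% of genes, and the exceptions were Tmem119, Fcrls and Ltc4s.

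The second comparison asked what clodronate liposomes added to NMO, and here Cst3, Crybb1 and Olfml3 fell. The Cst3 call held in 17 of 17 alternative fits, that of Crybb1 in 14 and that of Olfml3 in 7. These 3 calls compare with 131 genes called lower, 1.07% of those tested, and 196 called in all. At an unadjusted p under 0.05, the same 3 members were lower at 1.5-fold, against 6.65% of genes, and Fcrls and Sparc joined them at 1.2-fold, against 7.47%. In 7 members every NMO+CL library lay below every NMO library, against 9.22% of genes, and the 3 that overlapped were Tmem119, Ltc4s and Rnase4. Fitted values below 0 were found for all 10 members and for 50.3% of genes.

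Between the ends of the design, NMO+CL against Normal, 6 of the 10 fell: Cst3, Crybb1, Olfml3, Sparc, Rnase4 and Fcrls. The background of this comparison was larger, with 545 genes called lower, 4.43%, and 1133 called in all. An unadjusted p under 0.05 gave the same 6 members at 1.5-fold, against 10.2% of genes, and 9 members, all but Tmem119, at 1.2-fold, against 11.3%. Every NMO+CL library was below every Normal library in 9 members, with Tmem119 as the exception, against 14.9% of genes. All 10 fitted values were below 0, as were 50.6% of those of all genes. The 3 comparisons share libraries, so their values are not independent of each other.

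**Figure D2:**
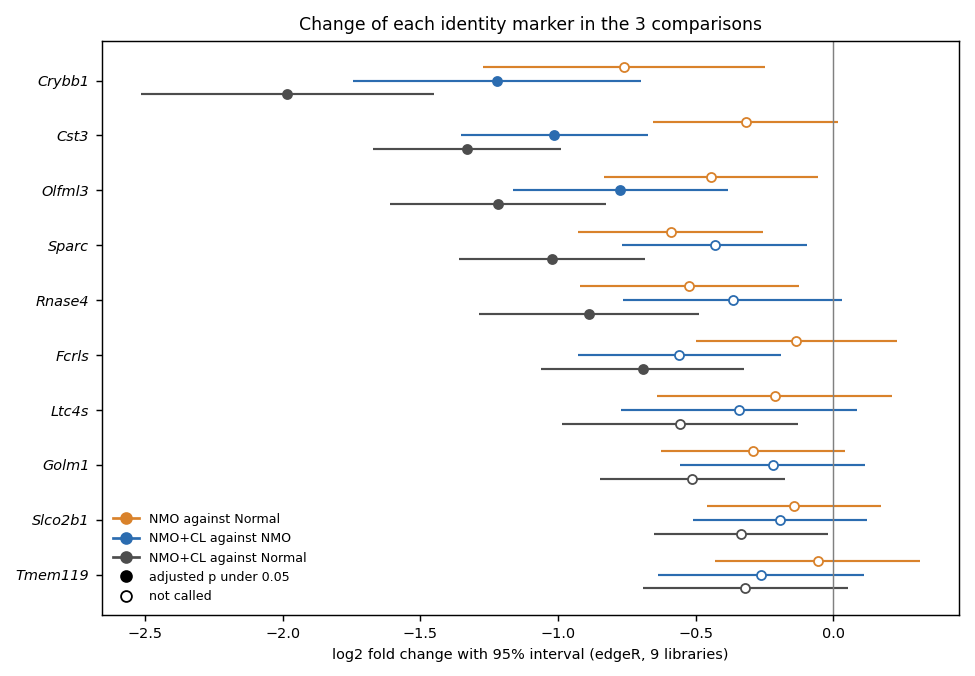
Fitted log2 fold change of each identity marker with its 95% interval, on a linear axis of log2 units, in NMO against Normal, NMO+CL against NMO and NMO+CL against Normal. Filled points were called at an adjusted p under 0.05. Crybb1 reaches -1.98 in NMO+CL against Normal, and all 3 intervals of Tmem119 include 0.

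The members that encode secreted proteins are described first. Cst3 encodes cystatin C, a secreted inhibitor of cysteine cathepsins, and lies on chromosome 2 from 148871722 to 148875692 on the minus strand (GENCODE M21, GRCm38, also for the positions that follow). It stood at 22500, 22870 and 24600 CPM in the Normal libraries, at 17240, 19590 and 19310 in the NMO libraries and at 11840, 9178 and 6794 in the NMO+CL libraries. All NMO+CL libraries were the lowest, and the 3 groups did not overlap. The NMO+CL mean was 49.6% of the NMO level (95% interval 39.2% to 62.7%), a log2 fold change of -1.01 with a standard error of 0.16 and an adjusted p of 0.003924 in edgeR. Against Normal it was 39.8% (31.4% to 50.4%; adjusted p = 6.667e-05 in edgeR), while NMO against Normal gave -0.32 ± 0.16 (SE) and an adjusted p of 0.5741. Both calls held in 17 of 17 alternative fits.

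Sparc encodes a matricellular glycoprotein that binds collagen (minus strand of chromosome 11, bases 55394500 to 55423183). Its level was 3961, 3899 and 3412 CPM in Normal, 2406, 2752 and 2324 in NMO, with 1733, 1575 and 2243 in NMO+CL. Every NMO library lay below every Normal library, and every NMO+CL library below every NMO library, although NMO+CL replicate 3 came close to the lowest NMO library. In NMO+CL the level was 49.2% of Normal (38.9% to 62.3%), with a log2 fold change of -1.02 ± 0.16 (SE) and an adjusted p of 6.066e-04 in edgeR. The difference between NMO and Normal, -0.59 ± 0.16 (SE), had an adjusted p of 0.1306 in edgeR but was called by DESeq2 (0.007683) and by limma-voom (0.04311). From NMO to NMO+CL the fitted value was -0.43 with an adjusted p of 0.2305.

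Olfml3, a secreted olfactomedin-domain glycoprotein (minus strand of chromosome 3, bases 103722222 to 103738001), had 849.7, 975.5 and 1315 CPM in Normal, 758.0, 776.7 and 772.2 in NMO, with 472.9, 378.9 and 497.3 in NMO+CL. The NMO libraries were close together and the groups did not overlap. Against Normal, NMO+CL stood at 43.0% (32.7% to 56.4%; log2 fold change -1.22, adjusted p = 4.871e-04 in edgeR). Against NMO it stood at 58.5% (44.6% to 76.6%) with an adjusted p of 0.0435, a call that held in 7 of 17 alternative fits. It was lost with size factors of the RLE method (0.05831), with library totals alone (0.05384) and with only the 2 groups in the fit (0.08112). Leaving out a library also ended it, for Normal replicate 1 (0.05098) or 2 (0.07593), for NMO replicate 1 (0.1434), 2 (0.08386) or 3 (0.08493), and for NMO+CL replicate 1 (0.05998) or 2 (0.2341). NMO against Normal gave -0.44 and an adjusted p of 0.4486.

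Rnase4, a secreted ribonuclease of the ribonuclease A family (plus strand of chromosome 14, bases 51091077 to 51106151), had 854.0, 964.0 and 1025 CPM in Normal, 789.4, 605.0 and 584.8 in NMO, with 400.7, 529.8 and 606.1 in NMO+CL. Both injected groups lay below Normal and overlapped each other. NMO+CL was at 54.0% of Normal (41.0% to 71.3%; log2 fold change -0.89, adjusted p = 0.005961 in edgeR). The other differences were -0.52 in NMO against Normal (adjusted p = 0.3296) and -0.37 in NMO+CL against NMO (adjusted p = 0.4577).

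Crybb1, which encodes a beta crystallin first known from the lens, had the largest fitted fall of the 10 in each of the 3 comparisons. It lies on chromosome 5 from 112255815 to 112269585 on the plus strand, and its low level rests on counts of 717, 642 and 500 in Normal, 425, 508 and 374 in NMO, with 165, 123 and 191 in NMO+CL. The corresponding levels were 114.1, 96.44 and 83.98 CPM, then 53.34, 60.70 and 59.77, then 24.03, 19.89 and 30.53. The lowest library of each group lay above the highest of the next. In NMO+CL the level was 25.3% of Normal (17.5% to 36.6%; log2 fold change -1.98, adjusted p = 9.591e-05 in edgeR) and 42.9% of NMO (29.8% to 61.6%; -1.22, adjusted p = 0.01837). The second of these calls was lost with only the 2 groups in the fit (0.09731), without NMO replicate 1 (0.0552) and without NMO+CL replicate 2 (0.1172). NMO against Normal gave -0.76 ± 0.24 (SE) and an adjusted p of 0.2322.

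The members Tmem119, Fcrls and Slco2b1 encode proteins of the cell surface. Tmem119 encodes a transmembrane protein widely used to tell microglia from infiltrating macrophages (minus strand of chromosome 5, bases 113793729 to 113800516). Its level was 2500, 3444 and 3368 CPM in Normal, 2769, 2773 and 3413 in NMO, with 2261, 2115 and 3087 in NMO+CL. The groups overlapped in every comparison, and the third NMO+CL library was higher than the first Normal library. NMO+CL stood at 80.1% of Normal with a 95% interval of 61.9% to 103.8% (adjusted p = 0.319 in edgeR) and at 83.3% of NMO with an interval of 64.3% to 108.0% (adjusted p = 0.5971). For NMO against Normal the fitted value was -0.06 (95% interval -0.43 to 0.32, adjusted p = 0.9785), and its sign turned with library totals alone as scaling (0.04) and without Normal replicate 2 (0.03). Totals alone moved the median of all genes by 0.11, and relative to that median Tmem119 was at -0.06. Relative to the median of all genes in each fit, it ran from -0.19 to 0.04 over the 17 alternatives and was above 0 in 5 of them. The intervals bound any fall of Tmem119 and do not show that its level was equal.

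Fcrls encodes an Fc receptor-like scavenger receptor (minus strand of chromosome 3, bases 87250758 to 87263738). It had 2063, 2721 and 2221 CPM in Normal, 1954, 2258 and 2173 in NMO, with 1354, 1184 and 1795 in NMO+CL. Normal and NMO overlapped, and NMO+CL lay below both. It fell in NMO+CL against Normal, to 61.9% (47.9% to 79.8%; log2 fold change -0.69, adjusted p = 0.01725 in edgeR). That call was lost without Normal replicate 2 (0.1119), without NMO+CL replicate 1 (0.05442) and without NMO+CL replicate 2 (0.1125). The value of -0.56 against NMO was not called (adjusted p = 0.1386), but was without NMO+CL replicate 3 (0.03698). NMO against Normal gave -0.13.

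Slco2b1, an organic anion transporter (minus strand of chromosome 7, bases 99657804 to 99711340), had 1433, 1315 and 1265 CPM in Normal, 1249, 1240 and 1147 in NMO, with 1140, 1066 and 972.3 in NMO+CL. The libraries were ordered without overlap, but the steps were small and none was called. NMO+CL was at 79.2% of Normal (63.6% to 98.6%; adjusted p = 0.1903 in edgeR).

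Of the intracellular proteins, Ltc4s encodes leukotriene C4 synthase, which joins glutathione to leukotriene A4 (minus strand of chromosome 11, bases 50236461 to 50238616). It had 299.0, 276.9 and 260.8 CPM in Normal, 178.2, 260.6 and 283.0 in NMO, with 212.5, 161.1 and 195.5 in NMO+CL. NMO overlapped both other groups, and NMO+CL lay below Normal at 68.0% (50.5% to 91.6%; adjusted p = 0.103 in edgeR). Golm1, a membrane protein of the Golgi (minus strand of chromosome 13, bases 59634626 to 59675811), had 829.2, 887.2 and 872.2 CPM in Normal, 672.6, 709.8 and 732.3 in NMO, with 669.2, 616.8 and 529.1 in NMO+CL. Its groups did not overlap, and NMO+CL was at 70.1% of Normal (55.6% to 88.5%) with an adjusted p of 0.05272 in edgeR, 0.003696 in DESeq2 and 0.02418 in limma-voom. The last exons of Golm1 and Ltc4s overlap Naa35 and Gm26542 on the opposite strand, and since the use of strand in counting is not given in the sources used here, reads of these pairs cannot be told apart.

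The order of the groups was common to the members. The group means of all 10 ran Normal, NMO, NMO+CL from high to low, as did those of 2952 genes, 24.0% of those tested. In 6 members, Olfml3, Sparc, Slco2b1, Crybb1, Golm1 and Cst3, the libraries of all 3 groups followed this order without overlap, against 171 genes, 1.39%. The median log2 fold change of the 10 was -0.30 after NMO induction, -0.40 between NMO and NMO+CL, and -0.79 between Normal and NMO+CL, where the medians of all genes were -0.01, -0.005 and -0.0125. In bulk libraries of this kind, fewer cells of a type and less RNA per cell cannot be told apart.

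Within the NMO+CL group the members did not move as one. Replicate 3 was the highest library for Tmem119, Olfml3, Fcrls, Sparc, Crybb1 and Rnase4, and the lowest for Slco2b1, Golm1 and Cst3. The contrast was widest between Fcrls, at 124.3% of its group mean in replicate 3, and Cst3, at 73.3% of its own. Replicate 2 was the lowest for 6 members and the highest for 0. Over the 9 libraries, the Pearson correlation of 1 member with the mean standardised log2 CPM of the others ran from 0.60 for Tmem119 to 0.98 for Crybb1, and over the 45 pairs of members from 0.14 to 0.96 with a median of 0.76. The libraries share their groups and depths, and these correlations are descriptions.

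**Figure D3:**
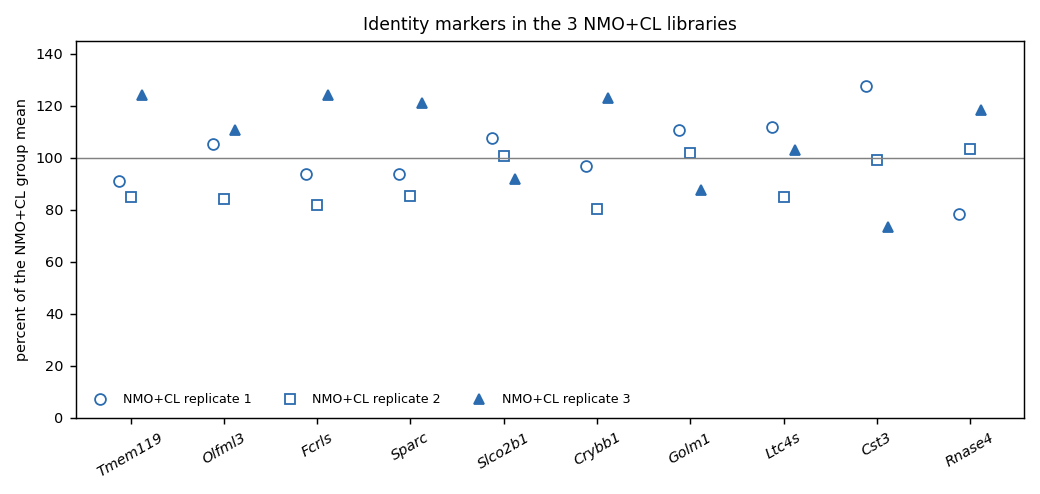
Level of each identity marker in the 3 NMO+CL libraries as a percentage of the mean of that group, on a linear axis from 0. The filled triangles of replicate 3 lie at 124.1% for Tmem119 and 73.3% for Cst3, on opposite sides of the line at 100%.

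Tmem119 was set against P2ry12, a purinergic receptor whose protein was used to sort the cells, within each library. P2ry12 transcripts stood at 2604, 2051 and 2660 CPM in Normal, 1753, 1555 and 1627 in NMO, with 448.4, 265.2 and 343.5 in NMO+CL. The number of Tmem119 counts per P2ry12 count was 0.96, 1.68 and 1.27 in Normal, 1.58, 1.78 and 2.10 in NMO, with 5.04, 7.97 and 8.99 in NMO+CL. The NMO+CL libraries were the highest, with a gap to every other library. The mean log2 ratio was 0.34 ± 0.40 in Normal, 0.85 ± 0.21 in NMO, with 2.83 ± 0.44 in NMO+CL (SD, n = 3). NMO+CL exceeded NMO 3.94-fold and Normal 5.61-fold, each with p = 0.1 in an exact two-sided permutation test, the smallest that 3 against 3 allows, and 0.15 after adjustment over 3 comparisons. NMO and Normal differed by 0.51 on the log2 scale (exact permutation p = 0.2, adjusted 0.2). The ratio needs no scaling between libraries. P2ry12 itself fell in NMO+CL (log2 fold change -2.79 against Normal, adjusted p = 4.614e-07 in edgeR). The transcripts of the other sort markers, Ptprc (CD45) and Itgam (CD11b), were not called in any comparison.

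**Figure D4:**
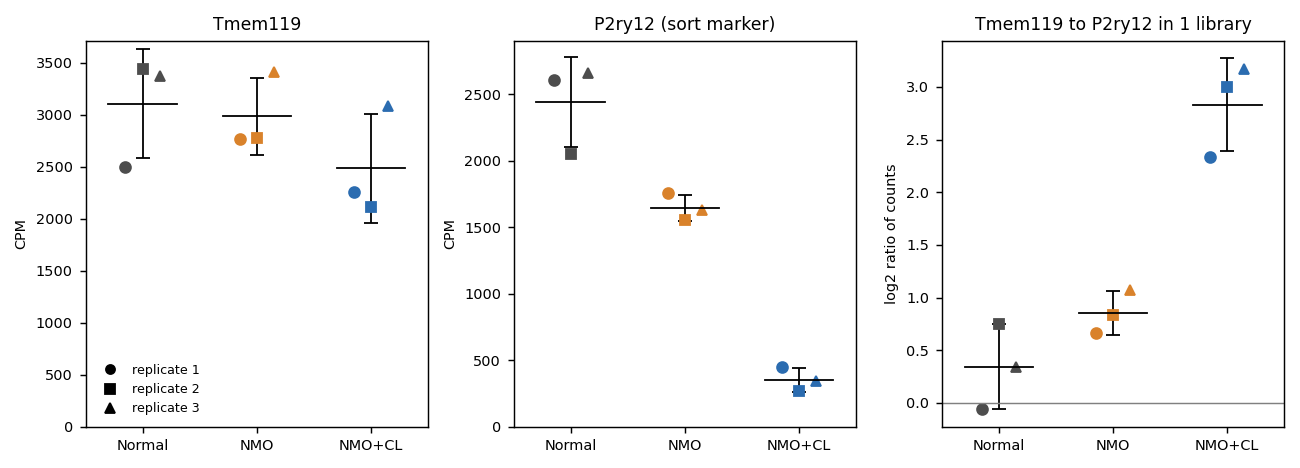
Level of Tmem119 and of P2ry12 in each library in CPM (left and middle, linear axes from 0) and the log2 ratio of their counts within the library (right). Points are libraries, bars are means and whiskers are SDs of 3 libraries, and the ratio rises from a mean of 0.34 in Normal to 2.83 in NMO+CL.

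Other genes of the microglial signature, a list of 30 that leaves out the 10 members, gave 1 gene called lower after NMO induction, 6 when clodronate was added to NMO, and 14 between Normal and NMO+CL, with 0 called higher. Over all genes the shares called lower were 0.0244%, 1.07% and 4.43%. The medians of the list were -0.15, -0.52 and -0.54. The single call after NMO induction was Siglech, a sialic acid-binding lectin (-0.88, adjusted p = 0.02861 in edgeR). After clodronate, the 6 calls against NMO were led by P2ry12 (-2.22) and Gpr34 (-2.37), both receptors coupled to G proteins. Siglech (-1.16) and the fructose transporter gene Slc2a5 (-1.41) came next by adjusted p. Against Normal the 14 were led by P2ry12 (-2.79), Gpr34 (-2.90), Siglech (-2.04) and Slc2a5 (-2.01). Chosen for their roles after their values were seen, they included Trem2, a lipid-sensing receptor (-0.92), Sall1, a transcription factor of microglial identity (-0.91), and Cx3cr1, the fractalkine receptor (-0.54). In each comparison the largest fitted fall on this list of 30 was larger than that of any of the 10 members. The longer list has more values from which such an extreme can come. The member medians were lower than those of this list in NMO against Normal (-0.30) and NMO+CL against Normal (-0.79). In NMO+CL against NMO the member median was higher (-0.40). Whether the lists differ was not tested.

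**Figure D5:**
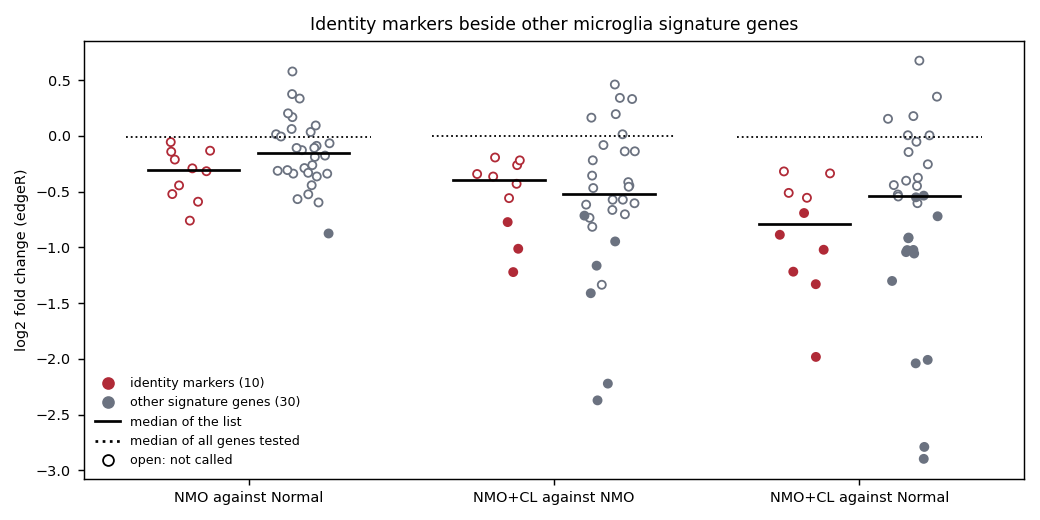
Fitted log2 fold changes of the 10 identity markers and of 30 other signature genes in the 3 comparisons, on a linear axis of log2 units. Each point is a gene, filled where it was called, solid bars are list medians and dotted lines the median of all 12292 genes tested. The medians of the identity markers lie at -0.30, -0.40 and -0.79.

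The 5 genes most like the members were found by Pearson correlation with their mean standardised log2 CPM over the 9 libraries, among 8831 genes whose mean count reached 50. They were Siglech (r = 0.993), Bach2 (0.989), Lmo2 (0.985), Sepp1 (0.982) and Slc40a1 (0.979). Siglech averaged 1355 ± 105 CPM in Normal, 738 ± 62.9 in NMO, with 329 ± 59.5 in NMO+CL (SD, n = 3). Bach2 and Lmo2 encode transcriptional regulators, Sepp1 encodes selenoprotein P and Slc40a1 encodes the iron exporter ferroportin.

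The relatives and pathway partners of the members did not share their direction in every case. Over all genes, 0.472% were called higher after NMO induction, 0.529% when clodronate was added to NMO, and 4.78% between Normal and NMO+CL, beside the shares called lower of 0.0244%, 1.07% and 4.43%. Cst7, the cystatin F gene, was higher in NMO+CL than in Normal (18.0 ± 2.82 against 1.23 ± 0.66 CPM, SD, n = 3; adjusted p = 0.001997 in edgeR), while Cstb, the only other cystatin tested, was at -0.33 (adjusted p = 0.5816). Of 9 cysteine cathepsins, the targets of cystatins, Ctsc rose in NMO (1.06, adjusted p = 0.03506) and, set against Normal, in NMO+CL (1.68, adjusted p = 1.14e-04), and Ctsf fell in NMO+CL against Normal (-1.06, adjusted p = 0.005572). In NMO+CL against NMO, 0 of the 9 were called. Ctss, an abundant cathepsin of microglia, was at 0.11 in NMO+CL against Normal and was not called.

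Of the 7 other genes of leukotriene synthesis and reception that were tested, 0 were called in NMO against Normal and 2 rose in NMO+CL. Alox5, the 5-lipoxygenase gene, was higher against NMO (1.33, adjusted p = 0.01896 in edgeR) and against Normal (1.66, adjusted p = 9.836e-04). Alox5ap, which encodes its activating protein, was higher by 0.85 (adjusted p = 0.01766) and 0.95 (adjusted p = 0.001652). Both act upstream of Ltc4s, whose fitted values in the same comparisons were -0.34 and -0.56 and were not called. The sums of neutrophil and of monocyte markers, given below, also had higher means in NMO+CL, with overlapping ranges. The part of other cells in the rises of Alox5 and Alox5ap was not tested.

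Ang, the angiogenin gene that shares the promoter printed above with Rnase4, was the 1 of 4 other genes of the ribonuclease A list that was called, in NMO+CL against Normal. It averaged 97.2 ± 11.7 CPM in Normal, 83.5 ± 13.5 in NMO, with 49.4 ± 7.07 in NMO+CL (SD, n = 3), a log2 fold change of -0.98 from Normal with an adjusted p of 0.01068 in edgeR. Among 3 other Fc receptor-like genes tested, Fcrl1 was called (-1.56 against Normal, adjusted p = 0.04126), and of 2 olfactomedin-like genes other than Olfml3, 1 was called, Olfml2b (-1.34, adjusted p = 0.02041). Of 3 other organic anion transporters and 4 relatives of Sparc and matricellular genes tested, 0 were called in any comparison.

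Markers of other cells were counted in the same libraries. The summed level of 9 monocyte markers was 30.6 to 57.0 CPM in Normal, 43.3 to 80.3 in NMO and 47.2 to 120.7 in NMO+CL. The 10 neutrophil markers summed to 100.5 to 584.1, 155.2 to 481.0 and 298.8 to 1365 CPM, the highest in NMO+CL replicate 1. The 9 border macrophage markers summed to 159.9 to 307.7, 10.8 to 194.4 and 223.3 to 411.3 CPM, the lowest in NMO replicate 2. The means of these 3 lists were higher in NMO+CL than in Normal, and the ranges of the summed levels overlapped. In 8 of the 9 libraries most of the border macrophage sum was Cbr2, a carbonyl reductase gene (199.4 ± 73.7 CPM in Normal and 275.1 ± 107.7 in NMO+CL, SD, n = 3), which had 0 counts in NMO replicate 2. Of its 6 tested genes, 3 had a negative fitted value in NMO+CL against Normal, among them the mannose receptor gene Mrc1 (-0.13), and the median was 0.02. Over the 3 lists 1 gene was called, the monocyte marker Fn1, which encodes fibronectin and was higher in NMO+CL than in Normal (24.2 ± 6.91 against 4.40 ± 2.83 CPM, SD, n = 3; log2 fold change 2.45, adjusted p = 0.02181 in edgeR). Of the 9 monocyte markers, 3 had a negative fitted value in NMO+CL against Normal, without a call. They included the chemokine receptor gene Ccr2 (5.59 ± 3.48 against 13.4 ± 8.48 CPM). Against NMO, 5 of the 9 were negative. The median log2 fold change of this list was 2.04 against Normal and -0.20 against NMO. For the 10 neutrophil markers it was 0.85 and 0.74, with 1 negative in each comparison. In NMO+CL replicate 1 the sum of the 10 neutrophil markers lay above the single levels of Fcrls, Slco2b1, Golm1, Olfml3, Rnase4, Ltc4s and Crybb1. The 10 members together summed to 20110 CPM in that library. Of 8 lymphocyte markers, summing to 5.66 to 21.5 CPM over all libraries, Cd3e had 0 counts throughout. The 10 endothelial and mural markers gave 190.8 to 256.2, 159.6 to 234.8 and 154.5 to 202.5 CPM. The summed level of 10 astrocyte and oligodendrocyte markers moved in the direction of the members, from 198.4 to 220.5 CPM in Normal to 106.8 to 138.4 in NMO and 85.5 to 126.9 in NMO+CL. Most of that sum was Slc1a3, a glutamate transporter gene, with 141.9 to 202.6 CPM in Normal, which fell in NMO+CL against Normal (-0.88, adjusted p = 0.02699 in edgeR). Slc1a2, another glutamate transporter gene, was also called lower (adjusted p = 0.02976), with 120, 0 and 45 counts in Normal and 1, 0 and 0 in NMO+CL. Aqp4, the aquaporin-4 gene, averaged 5.06 CPM in Normal and 7.64 in NMO+CL and was not called, and Gfap had 0 counts in 8 of the 9 libraries. Sparc and Cst3 are also known from astrocytes, which lack the CD45 and CD11b that the sort required. Transcripts of astrocyte markers were still counted in these libraries, and the part of these other cells in the falls was not tested.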

How the data were processed

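Sorted microglia from 9 libraries (3 groups of 3) were analysed. The authors prepared QuantSeq 3′ libraries, aligned single 75-base reads to mm10 with Bowtie2 and derived the read counts of each gene with bedtools, using unique as well as multiple alignments, and they deposited these raw counts. The builds and tools are those of the submitters' processing notes and the study's methods, and the annotation and use of strand are not given in the sources used here. Entries sharing a symbol were summed (35 symbols, no member). In R 4.3.3, edgeR 4.0.16 kept 12292 genes by filterByExpr (minimum count 10, minimum total 15), scaled libraries by TMM and fitted a quasi-likelihood model to all 9 libraries with 1 coefficient per group. Two-sided tests were adjusted by Benjamini-Hochberg over all genes, and intervals are at 95%. The 17 alternatives included DESeq2 1.42.0, limma-voom (limma 3.58.1), other scalings, no filter and leaving out each library. The 1.2-fold threshold was added after the data were seen. The code was tested on simulated data.

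Named genes were the members, up to 4 called genes per list and comparison (by adjusted p), the sort markers and the 5 genes most like the members. Trem2, Sall1, Cx3cr1, Ctss, Cstb and the marker genes Cd3e, Cbr2, Mrc1, Ccr2, Aqp4 and Gfap were named after their values were seen. The members and lists were chosen with earlier results of these data known. The study's methods describe the libraries of a group as independent biological replicates, each pooled from 3 samples, so p-values measure the spread between pools. Replicate libraries differed beyond counting error (chi-square per degree of freedom 23.2 to 55.5). Positions are from GENCODE M21, which matched 22197 of 23238 symbols and need not be the annotation the authors used.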

Additional observations from a re-analysis of the deposited data

How the results depend on the processing

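Over 17 alternatives, 10 members and 3 comparisons, 487 of 510 member results kept their direction and side of the threshold, 16 lost a call, 5 gained one and 2 changed sign, both for Tmem119 in NMO against Normal (0.0398 with library totals alone, and from -0.1975 to 0.0256 when 1 library was left out, the highest without Normal replicate 2; none was called). With the replicate block, 0, 3 and 6 members were called in NMO against Normal, NMO+CL against NMO and NMO+CL against Normal, as without it, and 53, 197 and 1123 genes. The numbers were not treated as pairs, because same-numbered libraries of different groups correlated across genes at only -0.015 to 0.030. In NMO against Normal, the genes called moved from 61 to 222 with DESeq2, 223 with no filter on low counts, 96 with library totals alone and 34 with only the 2 groups compared, and 1 member was called with DESeq2 and with limma-voom. In NMO+CL against NMO they moved from 196 to 465, 496 and 73 with DESeq2, no filter and only the 2 groups, where 1 member was called. Leaving out 1 library gave 20 to 75, 51 to 231 and 649 to 1265 genes, and 1 to 4 members in NMO+CL against NMO. The cause of these moves was not tested. Crybb1 rests on 123 to 717 counts per library.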
